A study of Mus musculus with 4 samples.

Results

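The transcription factors that establish and hold B cell identity were followed in mouse splenic follicular B (FOB) cells with and without Hnrnpf, which encodes the RNA-binding protein hnRNP F. The 10 genes were taken by symbol from the count table of 55401 genes, and each matched a single row. They were Ebf1, Tcf3, Pax5, Ikzf1, Ikzf3, Spi1, Spib, Pou2f2, Pou2af1 and Foxo1. FOB cells were sorted from the spleens of 7-week-old C57BL/6 mice as B220+CD93-CD23highCD21low cells, and libraries of poly(A) RNA were made from 2 WT samples and from 2 Hnrnpf bKO samples. By the study's methods, both groups carried floxed Hnrnpf alleles (Hnrnpf fl/fl). WT mice had no Cre, and Hnrnpf bKO mice were heterozygous for a B lineage Cre knock-in, which deletes exon 4 of Hnrnpf. Loss of hnRNP F and the presence of this Cre allele cannot be told apart in these libraries. The sources used here do not say whether a library came from 1 mouse or from pooled mice, so p-values measure the spread between these samples, which may be technical.

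E2A (from Tcf3) and EBF1 (from Ebf1) start the B lineage program in the bone marrow, and PAX5 commits cells to it by switching on B cell genes and silencing genes of other lineages. Ikaros (Ikzf1) and Aiolos (Ikzf3) are zinc finger proteins that shut down the pre-B cell receptor genes and restrain mature B cells. PU.1 (Spi1) and Spi-B (Spib) are ETS family proteins that bind shared sites, Oct-2 (Pou2f2) binds the octamer of immunoglobulin and other B cell promoters with its coactivator OBF-1 (Pou2af1), and FOXO1 drives genes of recombination and lymphocyte homing. Mature FOB cells still need most of these factors.

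Each library held 15698567 to 18908963 counts. CPM are counts relative to the total of the tested genes in a library, scaled by TMM. Hnrnpf was at 353 and 349 CPM in WT and at 74.4 and 66.7 CPM in Hnrnpf bKO. The Hnrnpf bKO level was 20.1% of the WT level (adjusted p = 1.05e-10 by edgeR). The median log2 fold change of the 14123 tested genes was near 0 (-0.00229). All fold changes are Hnrnpf bKO over WT from edgeR's quasi-likelihood fit, and adjusted p-values (Benjamini-Hochberg) run over all tested genes. A gene is said to rise or fall where its adjusted p did not exceed 0.05.

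Of the 10 factors, 4 fell in Hnrnpf bKO FOB cells and 0 rose. Pou2f2 fell to 79.0% of the WT level, Spib and Ebf1 each to 84.9% and Pax5 to 87.2%. In bulk RNA, fewer cells of a subset and less RNA per cell cannot be told apart. Ikzf1, Ikzf3, Spi1, Tcf3, Pou2af1 and Foxo1 did not pass the test, with estimates from 86.7% to 112% of WT. Of the members, 0 had both an adjusted p of 0.05 or less and a 2-fold change, a pair of criteria that 0.899% of the tested genes met, and no estimate reached 2-fold. Among tested genes 2.83% fell and 4.15% rose. The members are abundant, with means above 1000 counts, and in the 3970 genes of that depth 5.59% fell and 7.33% rose. At an unadjusted p under 0.05, 6 members were lower and 2 were higher. The share of all tested genes at that unadjusted level was not computed, so these counts have no background beside them. The median log2 fold change over the members was -0.17. The libraries of the groups did not overlap for 9 of the 10 members, as for 50.1% of tested genes. The count of members that passed depended on single libraries. It was 1 (Pou2f2) without Hnrnpf bKO replicate 1, 3 without WT replicate 1, 6 without WT replicate 2 and 4 without Hnrnpf bKO replicate 2. When the deposited FPKM values were tested with limma in place of the counts, 0 members passed. On FPKM, 6 were lower at an unadjusted p under 0.05, also without a background share. The log2 fold changes there of the 4 that fell by edgeR were -0.36 to -0.21. With 2 libraries a group, an exact permutation test on any 1 gene cannot give a two-sided p below 0.333333, so the calls rest on the spread shared across genes.

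**Figure D1:**
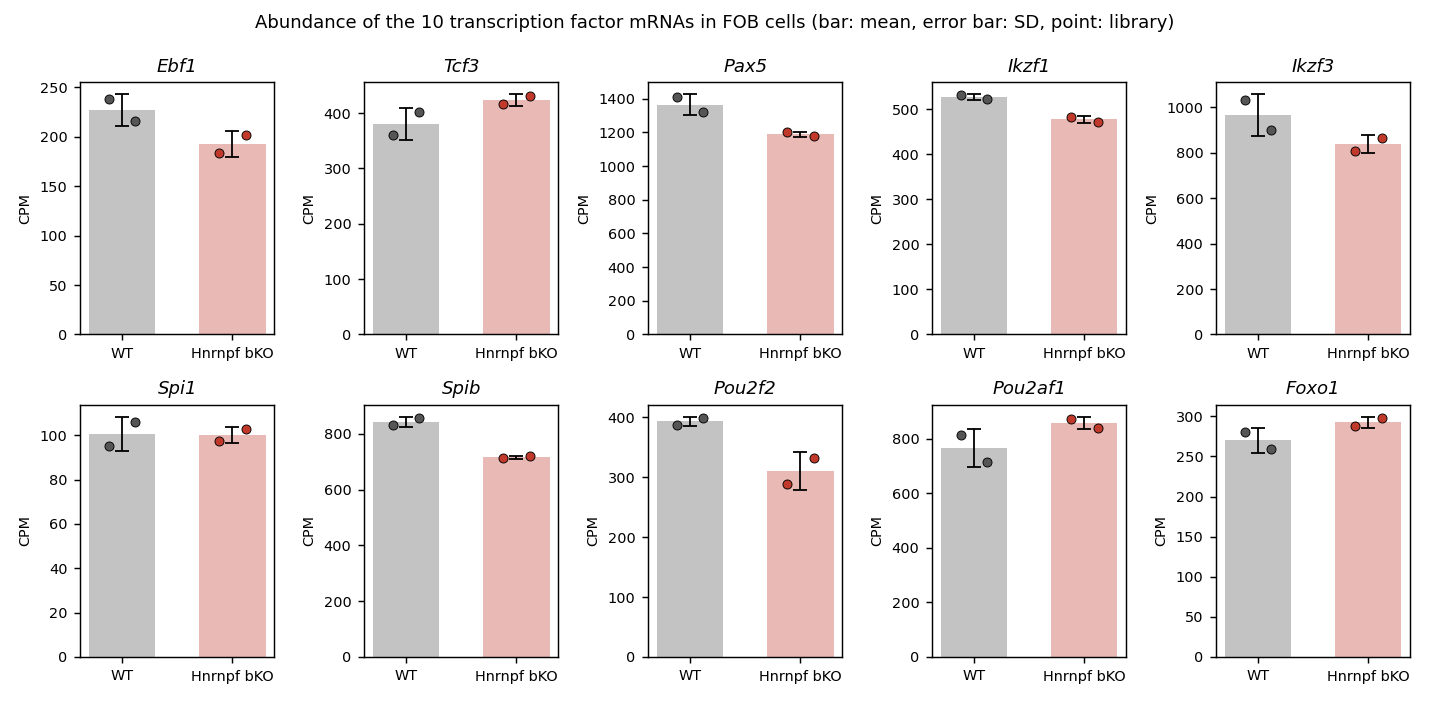
CPM of the 10 factors in each library (points), with bars at the group means and error bars of 1 SD, n = 2 per group and each axis from 0. Pou2f2, Spib, Pax5 and Ebf1 lie lower in both Hnrnpf bKO libraries than in both WT libraries, and the Spi1 points of the groups interleave.

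**Figure D2:**
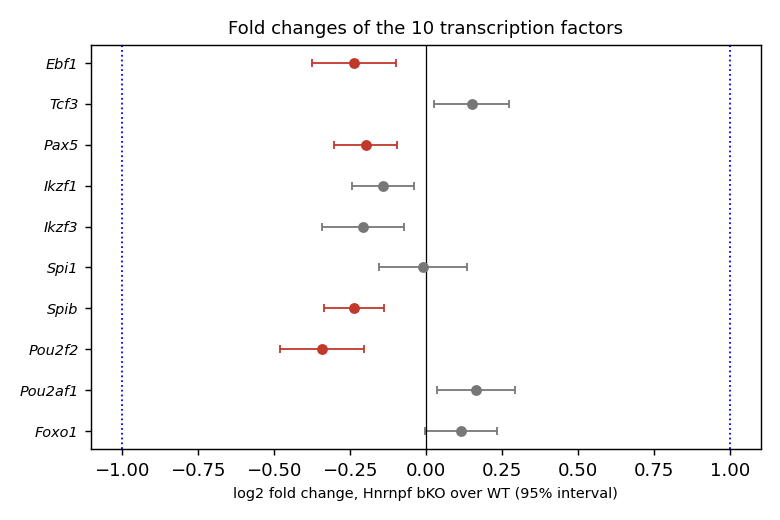
Log2 fold change of each factor (Hnrnpf bKO over WT) with its 95% interval. Red points passed an adjusted p of 0.05, and all 10 estimates lie between -0.34 and 0.16, far from the dotted lines at a 2-fold change.

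Among the factors that specify the lineage, Ebf1 and Pax5 fell and Tcf3 did not pass. Ebf1, a pioneer factor of the B lineage (chr11:44617317-45008091 on the plus strand, GRCm38), was at 238 and 216 CPM in WT and at 183 and 202 CPM in Hnrnpf bKO. All WT values were above all Hnrnpf bKO values, though WT replicate 2 and Hnrnpf bKO replicate 2 were close. Ebf1 averaged 227 ± 16.0 CPM in WT and 192 ± 13.0 CPM in Hnrnpf bKO (SD, n = 2). The log2 fold change was -0.24 (95% interval -0.37 to -0.10, adjusted p = 0.0421 by edgeR). The adjusted p was 0.245 without WT replicate 1 and 0.251 without Hnrnpf bKO replicate 1.

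Pax5, the commitment factor (chr4:44524757-44710487, minus strand), was the member with the most counts. It was at 1408 and 1319 CPM in WT and at 1200 and 1177 CPM in Hnrnpf bKO, and the gap between the groups was wider than the difference within either. Its log2 fold change was -0.20 (95% interval -0.30 to -0.09, adjusted p = 0.0261 by edgeR). The estimate stayed between -0.24 and -0.15 with any library left out, but the adjusted p rose to 0.0907 without WT replicate 1, 0.107 without Hnrnpf bKO replicate 1 and 0.158 without Hnrnpf bKO replicate 2. Of the annotated exonic bases of Pax5, 8.60% overlap genes on the opposite strand (5730488B01Rik and Gm12462), and since no source used here gives the strand setting of the counting, reads of those bases cannot be assigned to a strand.

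Tcf3 (chr10:80409514-80433647, minus strand) went the other way. It was at 361 and 401 CPM in WT and at 416 and 431 CPM in Hnrnpf bKO, and the groups did not overlap. The log2 fold change of 0.15 (95% interval 0.03 to 0.27) had an adjusted p of 0.145 by edgeR. WT replicate 1 was the lowest library, and the log2 fold change was 0.08 without it (adjusted p = 0.595) and 0.23 without WT replicate 2 (adjusted p = 0.0262).

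The Ikaros family members were both lower in each Hnrnpf bKO library than in each WT library, and neither passed. Ikzf1 (chr11:11685003-11772926, plus strand) was at 531 and 522 CPM in WT and at 483 and 472 CPM in Hnrnpf bKO, for a log2 fold change of -0.14 (95% interval -0.24 to -0.04, adjusted p = 0.0987 by edgeR). Replicates of Ikzf1 lay close together, and no library left out brought it past the threshold. Ikzf3 (chr11:98464902-98546031, minus strand) was at 1031 and 902 CPM in WT and at 810 and 866 CPM in Hnrnpf bKO. Its WT libraries lay further apart than its Hnrnpf bKO libraries, and the log2 fold change was -0.21 (95% interval -0.34 to -0.07, adjusted p = 0.0678 by edgeR). Ikzf3 passed with DESeq2 (adjusted p = 0.0409), without WT replicate 2 (adjusted p = 0.00157) and without Hnrnpf bKO replicate 2 (adjusted p = 0.0364). The log2 fold change was -0.11 without WT replicate 1 (adjusted p = 0.360) and -0.16 without Hnrnpf bKO replicate 1 (adjusted p = 0.332).

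Of the ETS pair, Spib fell and Spi1 did not change detectably. Spib (chr7:44525993-44532071, minus strand) was at 831 and 856 CPM in WT and at 712 and 721 CPM in Hnrnpf bKO. The gap between the groups was several times the difference within either. Spib averaged 844 ± 17.7 CPM in WT and 716 ± 6.03 CPM in Hnrnpf bKO (SD, n = 2), with a log2 fold change of -0.24 (95% interval -0.34 to -0.14, adjusted p = 0.00828 by edgeR). Its adjusted p was 0.0643 without Hnrnpf bKO replicate 1. Spi1 (chr2:91082390-91115756, plus strand) was at 95.2 and 106 CPM in WT and at 97.5 and 103 CPM in Hnrnpf bKO. Both Hnrnpf bKO values of Spi1 lay between the WT values, and the 95% interval of the Hnrnpf bKO level was 89.9% to 110% of WT (adjusted p = 0.961 by edgeR). The fall of Spib was not tested against the change of Spi1. The ratio of Spib to Spi1 per unit of exon length (FPKM) was 8.20 and 7.58 in WT and 6.86 and 6.60 in Hnrnpf bKO.

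Pou2f2 had the largest fold change of the members and passed with every library left out in turn. Pou2f2 (chr7:25087344-25179726, minus strand) was at 388 and 399 CPM in WT and at 288 and 333 CPM in Hnrnpf bKO. The WT libraries agreed closely, and Hnrnpf bKO replicate 1 was the lower of its group. Pou2f2 averaged 393 ± 7.83 CPM in WT and 311 ± 31.7 CPM in Hnrnpf bKO (SD, n = 2), with a log2 fold change of -0.34 (95% interval -0.48 to -0.20, adjusted p = 0.00617 by edgeR). It was -0.24 without Hnrnpf bKO replicate 1 (adjusted p = 0.0468) and -0.45 without Hnrnpf bKO replicate 2.

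Pou2af1, which encodes the coactivator that Oct-2 recruits at the octamer (chr9:51213708-51240080, plus strand), was higher in both Hnrnpf bKO libraries and did not pass. It was at 816 and 716 CPM in WT and at 874 and 842 CPM in Hnrnpf bKO, for a log2 fold change of 0.16 (95% interval 0.04 to 0.29, adjusted p = 0.129 by edgeR). WT replicate 2 was the lowest library, and Pou2af1 passed without WT replicate 1 (log2 fold change 0.26, adjusted p = 0.00367). Without WT replicate 2 its log2 fold change was 0.077 (adjusted p = 0.534). The FPKM ratio of coactivator to factor, Pou2af1 to Pou2f2, was 6.80 and 5.81 in WT and 9.81 and 8.17 in Hnrnpf bKO. This ratio was higher in both Hnrnpf bKO libraries, and it was chosen for the pairing of the proteins, without a test of its own.

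Foxo1 (chr3:52268336-52353221, plus strand) was at 281 and 259 CPM in WT and at 287 and 297 CPM in Hnrnpf bKO. Its values were slightly higher in Hnrnpf bKO without passing the test, with a log2 fold change of 0.12 and an upper bound of 118% of WT (adjusted p = 0.256 by edgeR). Of its annotated exonic bases, 7.78% overlap Gm20402 on the opposite strand.

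Promoter sequences were examined because several of these factors regulate each other's genes, Spib among them as a known target of OBF-1. RefSeq (GRCm38.p6) gave 10 promoters for 8 of the members, and the 250 bases before each start were searched on both strands. The octamer core TGCAAAT was found in 2 of these promoters, those of Spib and Pou2af1, and in 3.56% of 32851 promoters overall. The whole octamer ATGCAAAT, which contains the core, was in 0 of them and in 1.60% overall. The ETS core GGAAGT was found in promoters of Ebf1, Tcf3 and Pou2f2 (19.7% overall). The PU box GAGGAA was found in promoters of Ebf1 and Pou2f2 (23.3% overall). These motifs share GGAA, so they can overlap. For Ebf1, both lay in the promoter whose start is 2911 bases inside the gene. The other Ebf1 promoter, with its start 783 bases inside, held none of the motifs searched. The Foxo1 promoter held the palindromic EBF motif, TCCC and GGGA with 2 bases between them (0.779% overall), and the forkhead motif GTAAACA was in none of the 10 (3.17% overall). The promoters of Spib and Pou2f2, both of which fell, and of Pou2af1, which did not, are shown on the strand of the gene with the motif matches in capitals. In those of Spib (chr7:44532072-44532321) and Pou2af1 (chr9:51213440-51213689) the capitals mark the octamer core. In that of Pou2f2 (chr7:25132461-25132710), whose RefSeq start lies 47266 bases inside the gene, they mark the PU box and then the ETS core, both read from the opposite strand. A match describes letters in a window and not a bound site.
Spib promoter: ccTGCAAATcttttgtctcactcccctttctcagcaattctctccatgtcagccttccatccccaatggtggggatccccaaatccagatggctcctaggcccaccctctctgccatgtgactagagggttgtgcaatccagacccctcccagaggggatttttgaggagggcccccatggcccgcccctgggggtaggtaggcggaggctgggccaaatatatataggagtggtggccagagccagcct
Pou2af1 promoter: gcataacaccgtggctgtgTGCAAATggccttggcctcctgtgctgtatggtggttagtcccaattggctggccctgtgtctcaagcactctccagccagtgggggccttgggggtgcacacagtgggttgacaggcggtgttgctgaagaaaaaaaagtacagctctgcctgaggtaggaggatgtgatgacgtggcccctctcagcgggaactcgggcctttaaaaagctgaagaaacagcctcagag
Pou2f2 promoter: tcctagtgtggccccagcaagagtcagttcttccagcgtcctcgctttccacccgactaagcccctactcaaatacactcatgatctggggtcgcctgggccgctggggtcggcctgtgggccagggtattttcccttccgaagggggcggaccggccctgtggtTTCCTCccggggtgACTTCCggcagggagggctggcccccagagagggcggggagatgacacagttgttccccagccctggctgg

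Compared per unit of exon length, the factors spanned a wide range of levels, and all lay in the upper part of the expressed genes (percentiles 81.6 for Ebf1 to 99.2 for Pou2af1 by mean FPKM among tested genes). Overlap between factors is read here over all 4 libraries, with the groups pooled. Pou2af1 (mean FPKM 318) and Spib (272) were the highest, and their libraries overlapped. Within Hnrnpf bKO they did not, with Pou2af1 at 343 and 327 and Spib at 248 and 249. Pax5 (144) stood below them and above Ikzf3 (103), Tcf3 (99.4) and Ikzf1 (86.9), which overlapped as neighbours. A lower tier held Pou2f2 (42.7) and Spi1 (37.2), which overlapped each other, then Foxo1 (32.4) and Ebf1 (21.5), each apart from its neighbours. Within WT, Pou2f2 (47.0 and 48.7) lay above Spi1 (35.3 and 39.6). The authors' lengths count every annotated exon of a gene, so genes with long or rarely used exons read low on this scale. The FPKM ratio of Pax5 to Ebf1 was 6.51 and 6.74 in WT and 7.22 and 6.44 in Hnrnpf bKO, with overlapping groups. The FPKM ratio of Ikzf3 to Ikzf1 also overlapped, at 1.28 and 1.14 in WT and 1.11 and 1.21 in Hnrnpf bKO.

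**Figure D3:**
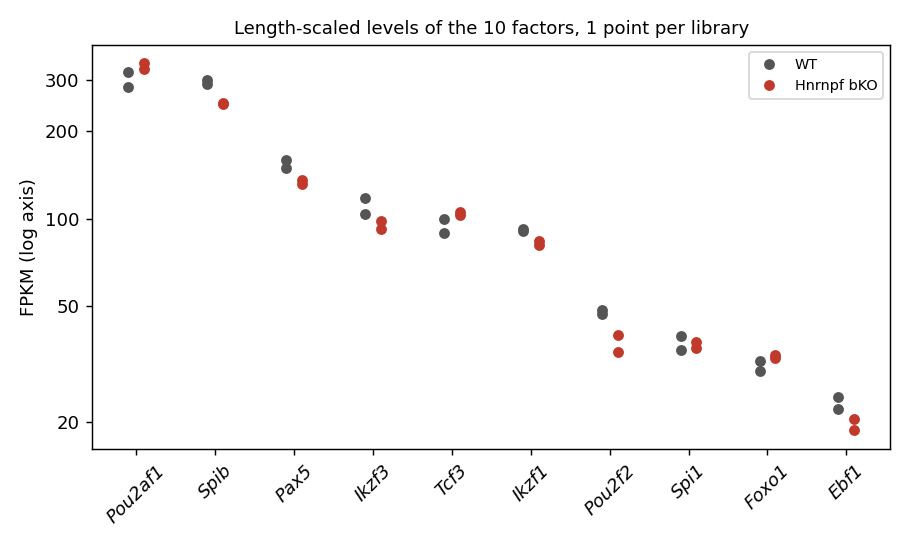
Deposited FPKM of the 10 factors in each library on a log axis, ordered by the mean of all 4 libraries, with WT in grey and Hnrnpf bKO in red. Pou2af1 and Spib lead, and Ebf1 is the lowest of the 10.

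The deposited table of altered splicing listed 2 of the 10 members, Ikzf1 with 1 skipped exon and Spib with 1 alternative 3′ splice site. Of the tested genes 8.22% are listed, and 12.9% of those with a mean of at least 1000 counts. The table gives the gene and the type of event without positions, so a listed event cannot be tied to a given exon. The segments that the GENCODE annotation of GRCm38 shows as optional in these genes are printed here because hnRNP F binds runs of G. Tracts of at least 3 G on the transcript strand are in capitals. The hnRNP F binding sites mapped in the study lay in introns, and the introns beside these segments were not examined. Ikzf1 has an exon of 60 bases (chr11:11740950-11741009) present in 1 of its 6 annotated transcripts and skipped in 4. It also has an exon of 261 bases (chr11:11748311-11748571), present in 2 and skipped in 3, in the part of Ikaros that carries its N-terminal DNA-binding zinc fingers. Spib has an acceptor segment of 54 bases (chr7:44529930-44529983, minus strand) included in 1 of 3 transcripts. All of these lie in the coding sequence and have lengths divisible by 3.
Ikzf1 exon of 60 bases: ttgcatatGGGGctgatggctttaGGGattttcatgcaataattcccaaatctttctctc
Ikzf1 exon of 261 bases: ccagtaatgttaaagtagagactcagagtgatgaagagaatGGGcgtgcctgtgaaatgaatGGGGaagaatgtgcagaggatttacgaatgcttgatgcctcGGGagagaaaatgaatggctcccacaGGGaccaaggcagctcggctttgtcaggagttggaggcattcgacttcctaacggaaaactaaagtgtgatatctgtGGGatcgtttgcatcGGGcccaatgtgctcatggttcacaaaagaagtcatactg
Spib acceptor segment: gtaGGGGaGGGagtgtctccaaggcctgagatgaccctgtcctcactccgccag

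The 60-base exon of Ikzf1 and the Spib segment each hold 2 G tracts, and the 261-base exon holds 6. Such tracts are common, since 48.6% of annotated exons of 60 bases, 94.7% of those of 261 bases and 51.2% of those of 54 bases hold at least 1. The other members, Ebf1, Tcf3, Pax5, Ikzf3, Spi1, Pou2f2, Pou2af1 and Foxo1, are not listed, and a gene can be missing there because its event was not tested or did not pass the authors' threshold.

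Of 26 related factors, chosen as relatives and partners of the members, 24 had enough counts to be tested. Of these, 1 rose, 1 fell and 22 did not pass, with a median log2 fold change of -0.06. Among all tested genes 4.15% rose and 2.83% fell. Bach2, a repressor that holds back plasma cell differentiation, rose from 313 and 312 CPM in WT to 378 and 369 CPM in Hnrnpf bKO, 120% of the WT level (adjusted p = 0.00627). Bcl11a, a factor needed for early B cell development, fell from 307 and 304 CPM to 255 and 273 CPM, 86.2% of WT (adjusted p = 0.0264), and lost its call without WT replicate 1 (adjusted p = 0.0752), WT replicate 2 (0.0599) or Hnrnpf bKO replicate 1 (0.205). The count of related factors that passed was then 1. The remaining ETS relatives were not called. Ets1, the most abundant of them, was at 1374 and 1315 CPM in WT and 1255 and 1208 CPM in Hnrnpf bKO (adjusted p = 0.141), and the ETS relative Spic had a log2 fold change of 0.93 at only 1.95 to 4.15 CPM (adjusted p = 0.0695). Irf4 and Irf8, partners of PU.1 and Spi-B on composite sites, had log2 fold changes of -0.11 and -0.05 and did not pass, nor did Mef2c (-0.12) and Foxp1 (-0.03).

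Of 30 genes taken from textbook knowledge as targets of the members, 24 were tested, 3 rose, 4 fell and 17 did not pass. Their median log2 fold change was -0.07. Among all tested genes 4.15% rose and 2.83% fell, and 7.33% and 5.59% of those with a mean of at least 1000 counts. Among the 11 genes that PAX5 and EBF1 activate, 0 rose and 2 fell. Ms4a1, which encodes CD20, fell to 82.0% (adjusted p = 0.00240), and Cr2, which encodes the CD21 used in the gate, fell to 72.2% (adjusted p = 0.00140). Cd79a and Cd79b, the signalling chains of the B cell receptor, had log2 fold changes of 0.10 and 0.11 and did not pass. The others that did not pass had estimates below 0, from -0.00 for Blnk to -0.12 for Cd22, an inhibitory coreceptor, with the kinase gene Blk at -0.03.

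Genes tied to the other members moved both ways. Of the octamer targets, Cd36 fell from 25.7 and 32.1 CPM to 21.4 and 20.5 CPM (log2 fold change -0.47, adjusted p = 0.0265), was not called without WT replicate 2 (log2 fold change -0.29, adjusted p = 0.253) or with DESeq2 (adjusted p = 0.0876), and Cxcr5 did not pass. Of the 3 ETS factor targets, Fcgr2b, an inhibitory Fc receptor, rose to 126% (adjusted p = 0.00156) and Grap2, an adaptor, to 134% (adjusted p = 3.18e-04), while Btk was at 102% and did not pass. Both that rose also have skipped exon events listed, and they are the only 2 of the 30 targets that are listed. Of all tested genes 8.22% are listed, and 12.9% of those with a mean of at least 1000 counts. A link between splicing and abundance was not tested. Of the 4 tested FOXO1 targets, 0 rose and 1 fell, S1pr1, a receptor for egress from lymphoid tissue, which went to 81.6% (adjusted p = 0.0156). S1pr1 was not called without WT replicate 2 (adjusted p = 0.0717) or Hnrnpf bKO replicate 1 (adjusted p = 0.120). Of the 4 tested genes that PAX5 represses, 1 rose and 3 did not pass, with log2 fold changes of 0.09 for Notch1, -0.21 for Csf1r and -0.23 for Cd28. Flt3, a receptor gene of early progenitors, rose from 8.56 and 10.8 CPM to 17.7 and 24.3 CPM, a log2 fold change of 1.12 (adjusted p = 0.00149), and was the only listed target past a 2-fold change. It stayed called with each library left out, but its log2 fold change was under 2-fold without WT replicate 1 (0.97) and without Hnrnpf bKO replicate 2 (0.87). The recombination genes Rag1 and Rag2 and the pre-B cell receptor genes Igll1, Vpreb1 and Vpreb2, silent in mature cells, were too low to test, as was Ccl3.

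**Figure D4:**
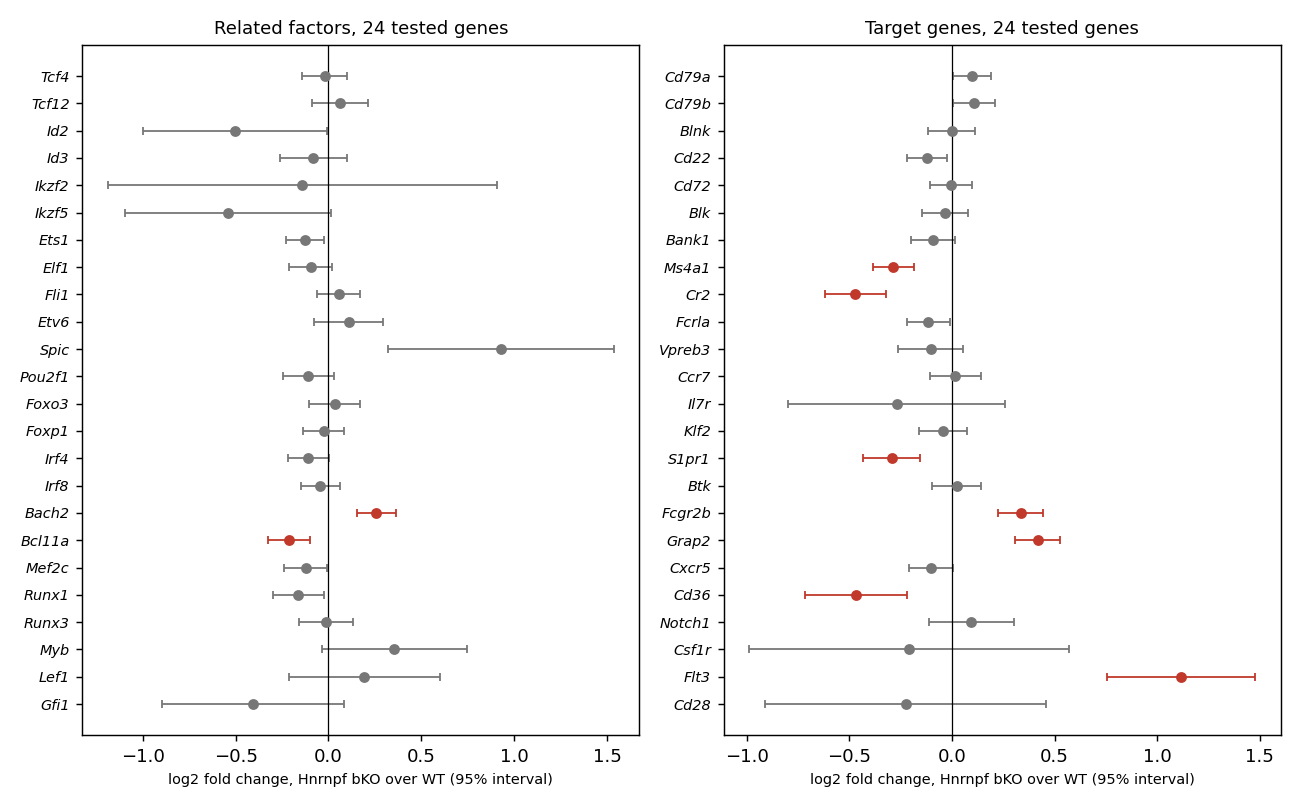
Log2 fold changes (Hnrnpf bKO over WT) with 95% intervals of the 24 tested related factors and the 24 tested target genes, in red where the adjusted p was at most 0.05. Bach2 and Bcl11a are the related factors that passed, Cr2, Cd36, Ms4a1 and S1pr1 are the targets that fell, and Flt3 is the highest.

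Markers of the sorted cells were present in all libraries, and some moved with genotype. The 7 follicular B cell markers summed to 25237 and 26164 CPM in WT and 26979 and 26789 CPM in Hnrnpf bKO. Sums are given relative to all counts of a library, without the TMM scaling. Among these markers Ms4a1 fell, as given above, Ighd rose to 121% (adjusted p = 0.00451) and Fcer2a, which encodes the CD23 of the gate, rose to 116% (adjusted p = 0.0180). Fcer2a was not called without Hnrnpf bKO replicate 2. The 3 marginal zone B cell markers summed to 362 and 342 in WT and 294 and 302 in Hnrnpf bKO, with Dtx1 at 85.5% (adjusted p = 0.0229) and S1pr3 at 72.7% (adjusted p = 0.0393) of WT and Cd9 not passing. Dtx1 was not called without WT replicate 1 (adjusted p = 0.152) or Hnrnpf bKO replicate 1 (adjusted p = 0.127), and S1pr3 lost its call whichever library was left out, at adjusted p-values of 0.0682 to 0.151, and with DESeq2 (adjusted p = 0.219). Cd93, which the gate excludes and which marks immature B cells, was low and rose from 8.44 and 11.7 CPM to 16.6 and 19.8 CPM (adjusted p = 0.00661).

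The neutrophil genes S100a8 and S100a9 rose (adjusted p = 0.00552 and 0.00808), and with Ly6g, at 1 count in each library but Hnrnpf bKO replicate 2, which had 13, that list summed to 5.07 and 7.35 CPM in WT and 12.8 and 20.5 in Hnrnpf bKO. None of the other marker lists had a gene that passed. Their sums ranged over the 4 libraries from 95.5 to 115 CPM for plasma cells (4 genes), 27.1 to 31.8 for plasmacytoid dendritic cells (2), 16.8 to 31.2 for T cells (5), 8.80 to 13.9 for myeloid cells (5), 2.14 to 3.49 for NK cells (2) and 0.775 to 1.34 for erythroid cells and platelets (4). The 10 factors together summed to 5977 and 5731 CPM in the WT samples and 5344 and 5395 CPM in the Hnrnpf bKO samples. The part of these marker shifts in the values of the 10 factors was not tested.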

How the data were processed

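RNA of FOB cells from 2 WT and 2 Hnrnpf bKO samples was analysed from the processed tables. Per the submitters' processing notes and methods, the authors used cutadapt 1.9.1, HISAT2 2.0.1 (GRCm38) and HTSeq 0.6.1. The deposited counts are whole reads per gene, without normalization, at 16360435 and 18908963 (WT) and 15698567 and 18074619 (Hnrnpf bKO) in total. The deposited FPKM values scale these counts by library total and exonic gene size, as done by the authors. The authors' splicing table (rMATS) also holds their inclusion differences and FDR, which were not used.

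Counts were tested with edgeR 4.0.16 in R 4.3.3 (TMM, filterByExpr, quasi-likelihood F test, 14123 genes, no covariate), with 95% intervals from the fit. Alternatives were RLE factors, DESeq2 1.42.0 (the test in the study's methods), limma 3.58.1 voom, other filters and thresholds, the replicate number as a block and each library left out. The limma-trend test was run on FPKM at pseudocounts of 1 and 0.1 (log2 scale), with genes under a mean FPKM of 0.5 left out. The fit was tested on simulated counts, with 50 genes changed at each fold, all averaging at least 1000 counts. It called 48% of them at 1.2-fold, 76% at 0.8-fold and 100% at 1.5-fold and at 2-fold. It also called 20 unchanged genes, with 13866 genes tested. Changes as small as the first 2 can thus be missed, and some calls can be false.

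The members, related factors, targets and markers were chosen with earlier results of these data known, so their counts are not independent evidence. Some listed targets are not reported here and were left out of the counts. The text names all 10 members, the other listed genes that passed, the 4 related factors and 4 targets with the most counts that did not, and further listed genes (Spic, Irf4, Btk, Cxcr5, Blnk, Notch1, Csf1r, Cd28, Cd9, Ly6g, and those too low to test) picked after their values were seen.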

Additional observations from a re-analysis of the deposited data

How the results depend on the processing

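The number of genes past an adjusted p of 0.05 went from 985 to 621 with DESeq2 and to 612 with the replicate block, and the number also past 2-fold from 127 to 73 with DESeq2 and to 217 with no filter on low counts. Over the libraries left out in turn, these numbers ranged from 679 to 861 and from 116 to 140. Of the members, 2 passed at an adjusted p of at most 0.01, 0 with limma on log2(FPKM + 1) or log2(FPKM + 0.1) (as a count of members, chosen after seeing the data), and 1 to 6 with a library left out. The 4 that fell had adjusted p-values of 0.0816 to 0.210 on FPKM, with 6 members lower at an unadjusted p under 0.05 (no background share computed). RLE factors, voom and a minimum of 10 counts left the count at 4, DESeq2 gave 5, and no filter (Pou2af1 then rose, adjusted p = 0.0139) and an adjusted p of at most 0.1 gave 6. The related factors that passed numbered 1 to 3 and the targets 5 to 7 with a library left out. The log2 fold change changed sign for Spi1 (-0.083 to 0.076), Foxp1 (-0.066 to 0.019) and Blk (-0.094 to 0.038) with a library left out, none of them called. The cause of these changes was not tested. With the replicate number as a block, 2 members (Spib and Pou2f2) and 1 related factor (Bach2) passed. Deviations of same-numbered libraries were nearly uncorrelated (r = 0.02 across 3970 genes, over 2 pairs). So few libraries cannot show whether the replicate numbers pair the samples. With 2 libraries a group, the median standard error (log2) over the genes averaging 1000 counts or more was 0.06.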
